A study of Mus musculus with 4 samples.

Results

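Genes of xenobiotic metabolism were followed across 4 Affymetrix arrays of sorted crypt cells from the mouse small intestine. They are the genes whose symbol starts with Cyp2, Cyp3a, Cyp4, Ugt, Sult, Gsta, Gstm, Gstt, Akr1 or Ces, and 144 of the 19938 genes with a probe set of 1 gene symbol carry such a name. The genes were chosen by symbol, and the measured values entered only where a gene had more than 1 probe set, in which case the one with the highest mean over the arrays was taken. That applied to 2 genes, Gstm3 and Ces5a. The prefixes are also letters, so that 8 of the 144 genes belong to other cytochrome families, such as Cyp26b1, which breaks down retinoic acid, and Cyp27a1, a sterol hydroxylase of bile acid synthesis.

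Xenobiotic enzymes act in sequence. Cytochromes P450 of families CYP2, CYP3A and CYP4 oxidise drugs, food compounds, steroids and fatty acids, aldo-keto reductases (Akr1) reduce aldehydes and ketones, and carboxylesterases (Ces) split esters and amides. UDP-glucuronosyltransferases (Ugt), sulfotransferases (Sult) and glutathione S-transferases (Gsta, Gstm and Gstt for the alpha, mu and theta classes) then join the product to glucuronic acid, sulfate or glutathione for export. In the intestine these enzymes are known chiefly from enterocytes of the villus, where they meet food and drugs before the liver does.

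The study asked what loss of the zinc transporter ZIP7, encoded by Slc39a7, does to proliferating and stem cells of the intestinal epithelium. Control mice were Zip7flox/+ and Zip7 KO mice Zip7flox/flox. Both genotypes carried villin-CreERT2, which is active throughout the intestinal epithelium, and Lgr5-EGFP-ires-CreERT2, which marks and recombines in stem cells, and both were adult and received tamoxifen for 2 days. The controls thus carry 1 floxed copy and are not untreated wild-type mice. Cells were sorted by Lgr5 reporter level into a fraction labelled Lgr5-Hi and one labelled Lgr5-Med in the source names (Lgr5-Mid in the titles), which gives 4 groups of 1 array each, here called the Hi and Med arrays of either genotype. The number of mice behind an array is not in the labels. With 1 array per group there is no replicate error, nothing was tested, and every difference below compares 2 arrays.

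Some facts of these arrays touch every result. Values are log2 levels after RMA, and a gene was taken as above the floor on an array where it exceeded percentile 95 of 1207 chemosensory receptor genes (olfactory, vomeronasal and trace amine) there, at 6.10 to 6.25. Lgr5 itself was lower on the Hi arrays (7.79 in control and 7.93 in Zip7 KO) than on the Med arrays (10.97 and 11.24), against the labels, so directions between fractions are those of the labels. Slc39a7 was at 8.92 and 9.02 on the Hi arrays and at 8.61 and 8.22 on the Med arrays of control and Zip7 KO. The sources used here do not say where its probes lie relative to the deleted part, which leaves the deletion unchecked. Xist read 11.64 and 11.84 in control but 5.59 and 5.43, under the floor, in Zip7 KO, and the Y-linked Eif2s3y went the other way (4.10 and 4.24 against 8.12 and 8.11). Sex and genotype therefore cannot be told apart, which matters for enzymes with a known sex difference in mouse liver. Of 10 such genes named after the values were seen (Cyp2b9, Cyp2b13, Cyp3a16, Cyp3a44, Sult2a3, Sult2a6 and Sult3a1 of females, Cyp2d9, Cyp4a12a and Cyp4a12b of males), 9 were at or under the floor on every array. Cyp3a44 was above it, at 6.66 and 6.68 on the control and 6.57 and 6.95 on the Zip7 KO Hi and Med arrays.

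Enzyme genes above the floor were about as many as those under it. Of the 144 genes 71 were above the floor on at least 1 array, 60 on all 4, 11 on some, and 73 on none. Of all 19938 genes, 12404 outside the receptor list that sets the floor were above it on at least 1 array, a larger share. The number of members above the floor was 65 on both control arrays and 69 and 64 on the Zip7 KO Hi and Med arrays. Over all genes but the receptors it was 11734 and 12099 on the control Hi and Med arrays and 11731 and 11877 on those of Zip7 KO. Above the floor on at least 1 array were 7 of 7 mu class, 2 of 2 alpha class and 3 of 4 theta class transferases, 10 of 16 carboxylesterases, 8 of 14 Akr1 genes, 7 of 16 sulfotransferases, 4 of 11 Ugt genes and 30 of 74 Cyp genes, with 4 of 6 in Cyp3a. On every array it was 7 of 7 for the mu class, 7 of 16 for the carboxylesterases and 8 of 14 for Akr1. Whole subfamilies known from liver and nose were under the floor throughout, among them the 3 Cyp2a genes, both Ugt3a genes, both Ces3 genes and both Sult3 genes.

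**Figure D1:**
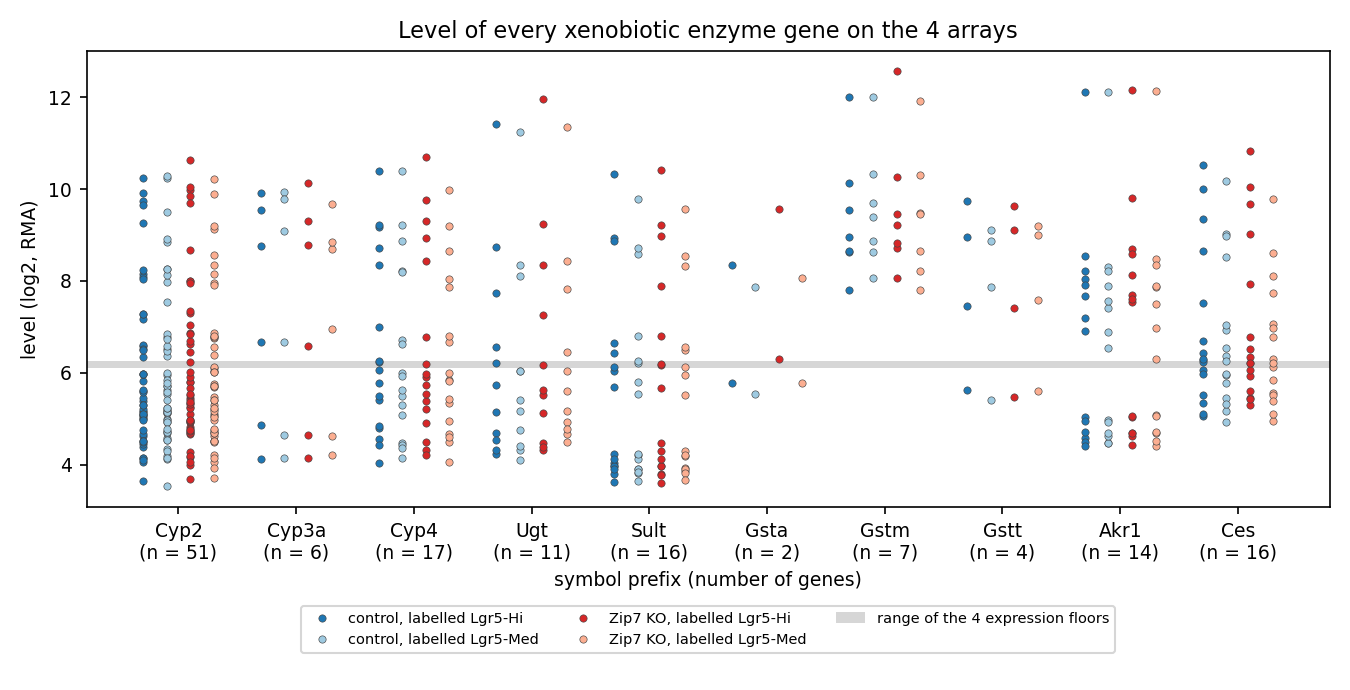
Level of each of the 144 genes (log2 after RMA, vertical axis) by symbol prefix (horizontal axis), with 1 point per gene and array, coloured by array, and the range of the 4 floors in grey. Most Cyp2, Ugt and Sult genes lie under the floor on all arrays, and the 7 Gstm genes all lie above it.

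The gene with the highest mean level in each prefix shows how far these enzymes varied. These levels do not rank amounts of RNA between genes, since probes differ. Akr1a1, a general aldehyde reductase, was at 12.13 and 12.16 on the control and Zip7 KO Hi arrays and at 12.11 and 12.14 on the Med arrays, nearly the same on every array. Cyp3a13, a CYP3A enzyme of the intestine, was at 9.92 and 10.13 on the Hi arrays and at 9.94 and 9.67 on the Med arrays, highest and lowest in Zip7 KO. Gstt1, of the theta class, was at 9.75 and 9.64 on the Hi arrays against 8.87 and 9.0 on the Med arrays, so that both Hi values lay above both Med values.

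Further leading genes were, like Akr1a1 and Cyp3a13, highest on the Zip7 KO Hi array. Gstm3, a mu class transferase, was at 12.00 in the control and 12.56 in the Zip7 KO Hi array, against 12.00 and 11.91 on the Med arrays. Ugt2b34, a glucuronosyltransferase, was at 11.42 and 11.97, against 11.24 and 11.35. Cyp4f14, which hydroxylates leukotriene B4 and vitamin E, was at 10.40 and 10.70, against 10.39 and 9.98. Cyp2d26 (10.25 and 10.63 against 10.29 and 10.21), Sult1d1 (10.34 and 10.41 against 9.78 and 9.56) and Ces2e (10.53 and 10.83 against 10.18 and 9.79) had their highest value on that array as well. In Gstm3, Cyp4f14, Cyp2d26, Sult1d1 and Ces2e, as in Cyp3a13, the lowest value was on the Zip7 KO Med array, so the control arrays lay between the Zip7 KO arrays.

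The first comparison set Zip7 KO against control on the Hi arrays. An aldo-keto reductase (Akr1c19), an alpha class transferase (Gsta4), a sulfotransferase (Sult6b2) and a cytochrome (Cyp2c68) were at least 2-fold higher in Zip7 KO, and no member was 2-fold lower. Of the 69 members above the floor on either array 53 were higher and 16 lower, with a median of 0.14. Of all 11988 genes compared 6591 were higher, with a median of 0.02. The 4 members at least 2-fold higher are 5.8% of those compared, where 0.25% of all genes were that much higher, and 0 members were 2-fold lower, where 0.234% of all genes were. A member that cleared the floor through 1 array alone had to differ, so these counts describe the arrays and no more.

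The 4 genes past 2-fold were picked for a high value on the Zip7 KO Hi array against control, so that their height there is no finding. Akr1c19, an aldo-keto reductase of the hydroxysteroid dehydrogenase subfamily, was at 8.54 in the control and 9.80 in the Zip7 KO Hi array, against 7.56 and 7.89 on the Med arrays. The difference on the Hi arrays was 1.26, or 2.39-fold, and that on the Med arrays 0.33. Gsta4, which conjugates the lipid peroxidation product hydroxynonenal with glutathione, was at 8.35 and 9.57, against 7.88 and 8.07. It was higher by 1.22 (2.33-fold) on the Hi arrays and by 0.20 on the Med arrays.

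Sult6b2, a sulfotransferase, was at 6.65 and 7.89 on the Hi arrays, against 6.80 and 6.56 on the Med arrays. The difference was 1.24 (2.36-fold) under the first label and -0.24 under the second. Cyp2c68, of a subfamily that oxidises drugs and arachidonic acid, was at 7.31 on the Zip7 KO Hi array and under the floor on the other 3, at 5.97 to 6.01. It was therefore higher by at least 1.06, or at least 2.09-fold, with the floor in place of the control value. Cyp2c65, in the same run of Cyp2c genes but not next to it, was at 9.26 and 10.05 on the Hi arrays. On the Med arrays Cyp2c65 was at 8.85 and 9.12, so it was higher by 0.79 and 0.27. The other genes of that run above the floor were Cyp2c66, with differences of 0.13 and -0.31, and Cyp2c55, with -0.32 and -0.73.

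**Figure D2:**
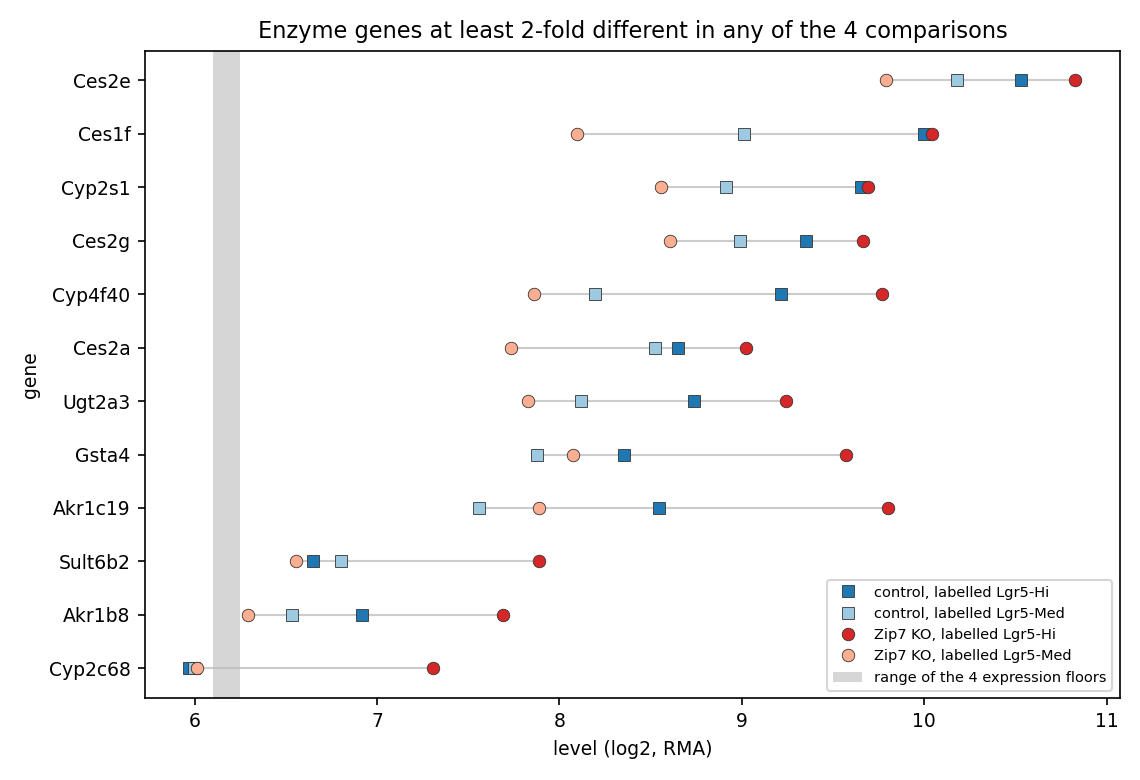
Levels (log2 after RMA, horizontal axis) on the 4 arrays of the 12 enzyme genes that differed at least 2-fold in any comparison, with the floor in place of lower values. Squares are control and circles Zip7 KO arrays, and the grey band is the range of the floors. All 12 stood at least 2-fold higher on the Zip7 KO array labelled Lgr5-Hi than on that labelled Lgr5-Med. They were picked through a high value on the first, a low value on the second, or both. The first holds the highest value of each gene.

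Sequence upstream of the genes past 2-fold is given here because they differed most on the Hi arrays, together with that of Cyp2c65 and of Cyp3a11, a target of the drug-sensing receptor PXR. Each line holds the 250 bases before the RefSeq gene start in GRCm38.p6, read on the gene's strand, and no such entry was used for Gsta4. Capitals mark a match to 1 of the 5 motifs searched on both strands.
Akr1c19, chr13:4233490-4233739, plus strand: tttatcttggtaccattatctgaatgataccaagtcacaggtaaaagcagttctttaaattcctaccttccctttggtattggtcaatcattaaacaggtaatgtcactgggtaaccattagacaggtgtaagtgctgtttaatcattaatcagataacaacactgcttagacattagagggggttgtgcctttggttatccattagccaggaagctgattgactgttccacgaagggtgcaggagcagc
Sult6b2, chr6:142804467-142804716, minus strand: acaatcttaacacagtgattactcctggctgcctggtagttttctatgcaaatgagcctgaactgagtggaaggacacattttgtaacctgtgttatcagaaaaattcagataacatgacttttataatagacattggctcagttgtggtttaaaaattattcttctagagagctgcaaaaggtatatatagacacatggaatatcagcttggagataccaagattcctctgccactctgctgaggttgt
Cyp2c68, chr19:39741102-39741351, minus strand: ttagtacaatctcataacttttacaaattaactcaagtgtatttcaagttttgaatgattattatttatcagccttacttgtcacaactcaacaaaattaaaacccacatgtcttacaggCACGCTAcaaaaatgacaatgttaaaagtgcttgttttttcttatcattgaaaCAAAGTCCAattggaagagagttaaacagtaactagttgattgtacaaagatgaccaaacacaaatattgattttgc
Cyp2c65, chr19:39060756-39061005, plus strand: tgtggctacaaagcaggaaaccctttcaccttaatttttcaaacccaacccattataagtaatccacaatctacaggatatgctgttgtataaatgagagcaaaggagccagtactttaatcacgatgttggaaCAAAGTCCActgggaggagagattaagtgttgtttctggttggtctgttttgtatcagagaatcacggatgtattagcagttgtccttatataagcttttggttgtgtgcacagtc
Cyp3a11, chr5:145879855-145880104, minus strand: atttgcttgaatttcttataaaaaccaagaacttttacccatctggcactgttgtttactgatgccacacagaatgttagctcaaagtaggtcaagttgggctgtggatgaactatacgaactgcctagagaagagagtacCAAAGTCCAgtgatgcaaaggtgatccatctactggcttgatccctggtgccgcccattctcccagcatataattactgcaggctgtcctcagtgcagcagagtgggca

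The motifs were the antioxidant response element core TGACNNNGC, bound by NRF2, the xenobiotic response element core TNGCGTG, bound by the aryl hydrocarbon receptor, the HNF4 site CAAAGTCCA, the HNF1 site GTTAATNATTAA and the ER stress response element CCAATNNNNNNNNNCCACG. The upstream windows of 118 of the 144 genes were held, with 135 starts. The HNF4 letters were in 6 of these starts (4.44%) and in 126 of all 32851 starts (0.384%). Among members above the floor they were in 3 of 74 starts (4.05%), those of Cyp2c65, Cyp2c68 and Cyp3a11, at 116, 77 and 109 bases before the start. All 3 are printed above, so the printed lines do not show how common these letters are among the members. Cyp2c65 and Cyp2c68 belong to a run of neighbouring, related Cyp2c genes, so the starts of members are not independent of each other. The antioxidant core was in 6 of 135 starts (4.44%) against 10.2% of all starts, and among members above the floor upstream of Cyp4f14, Gsta3, Gstm5 and Gstm7. The xenobiotic core was in 2 of 135 starts (1.48%) against 4.10%, upstream of Cyp2c68 and Sult1d1. No start of a member held the HNF1 or the ER stress letters, which occur in 0.0609% and 0.113% of all starts. The motifs do not overlap in the lines printed. The windows of Akr1c19 and Sult6b2, both past 2-fold on the Hi arrays, held none of the 5, and Cyp3a11, which holds the HNF4 letters, had another profile than Cyp2c68, at 8.76 and 8.78 on the Hi and at 9.08 and 8.70 on the Med arrays.

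The prefixes differed in how many members were higher on the Zip7 KO Hi array. By prefix, 7 of 8 Akr1 genes compared were higher, with a median of 0.45, as were 4 of 4 Ugt genes (0.57), 6 of 6 Sult genes (0.21), 6 of 7 Gstm genes (0.17) and 9 of 10 Ces genes (0.13). The second Gsta gene, Gsta3, was at 6.29 on the Zip7 KO Hi array and under the floor on the other 3. Of the 29 Cyp genes compared 18 were higher, near the share of all genes, with a median of 0.06. In the theta class 1 of 3 was higher and the median was -0.04, and the 4 genes of other cytochrome families were all lower, with a median of -0.11.

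Genes that neighbour each other in the genome differed in size. In the run of 8 Akr1c genes and Akr1e1, 5 were above the floor, and their differences went from 0.23 for Akr1e1 to 1.26 for Akr1c19. Akr1c13 went from 8.05 to 8.58, Akr1c12 from 8.21 to 8.69 and Akr1c14 from 7.20 to 7.61, while Akr1c6, Akr1c18, Akr1c20 and Akr1c21 were under the floor on every array. The Akr1b pair, which reduces lipid aldehydes and retinaldehyde, was split, with Akr1b8 at 6.92 and 7.69 on the Hi arrays and Akr1b10 at 7.67 and 7.53. Closely related genes share sequence, so that a probe set named for 1 of them may also report its neighbours.

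Among the Ugt genes, Ugt2b36 went from 6.56 to 7.26, Ugt2b35 from 7.75 to 8.34, Ugt2b34 from 11.42 to 11.97 and Ugt2a3 from 8.74 to 9.24 on the Hi arrays. All 4 thus lay between 0.50 and 0.70 above control, the narrowest range of any prefix with 3 or more members compared. The 5 members with the lowest differences were Cyp2c55 (-0.32), Cyp2d40 (-0.25), Cyp3a25 (-0.23), Cyp4a10 (-0.21) and Cyp20a1 (-0.14), all cytochromes. Cyp20a1 is of another cytochrome family, and the aldo-keto reductase Akr1b10 stood at -0.14 as well. Cyp2c55, an arachidonic acid oxidase of the gut, was at 7.18 and 6.86, and Cyp4a10, a fatty acid hydroxylase under control of PPAR alpha, at 7.0 and 6.79.

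Helper genes of this metabolism were in part higher as well. The lists of these genes held, besides regulators, the electron donors and haem supply of cytochromes, the synthesis of conjugation cosubstrates, other xenobiotic enzymes, and drug transporters. Of 16 cosubstrate genes compared 14 were higher (median 0.14), among them Papss2 at 0.50, which makes the sulfate donor, and Ugdh at 0.40, which makes UDP-glucuronic acid. The cystine transporter Slc7a11, which feeds glutathione synthesis, was higher by at least 0.99, its control value being under the floor. Of 34 other xenobiotic enzymes 25 were higher (median 0.15), led by Bche at 0.94, an esterase that splits choline esters, and the flavin monooxygenase Fmo5 at 0.67.

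Among 17 electron donor and haem genes 10 were higher (median 0.09), near the share of all genes, with cytochrome b5 type B (Cyb5b) at 0.58. The 31 regulators had 19 higher (median 0.05), also near that share, with the antioxidant regulator Nfe2l2 at 0.37 and the coactivator Ppargc1a at 0.51. Nr1i2 (PXR) and Nr1i3 (CAR), the drug-sensing nuclear receptors, were at 0.10 and 0.29, and Ahr at 0.27. The other 12 regulators were lower, with Cdx2 furthest at -0.33. The 20 transporters were evenly divided, 10 higher and 10 lower, with the efflux pumps Abcb1a and Abcc2 at 0.50 and 0.49 and Slc47a1 at -0.31.

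Markers of other cells moved with this comparison, and their part in it was not tested. All 6 Paneth cell markers and all 8 lymphocyte markers were lower in Zip7 KO, with medians of -0.94 and -1.01. The 10 enterocyte markers had 5 on either side and a mean level of 11.70 in control and 11.73 in Zip7 KO. Among them Sis and Alpi were at 0.36 and 0.33, and Fabp1 and Krt20 at -0.21 and -0.15. In bulk arrays fewer cells of a type and less RNA per cell cannot be told apart. The liver markers Alb, Ahsg, Fgb and Hp were under the floor on all arrays.

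The second comparison set Zip7 KO against control on the Med arrays, where the balance turned. No member passed 2-fold in either direction, 8 of 10 carboxylesterases and 3 of 4 CYP3A genes were lower, and Cyp3a25 and Ces1f had the largest differences. Of 67 members compared 25 were higher and 42 lower, with a median of -0.08, against 44.1% higher and a median of -0.03 over all 12243 genes. The 0 members past 2-fold stand beside 0.0653% of all genes higher and 0.621% lower by that size. With each array centred on its own median over all probe sets, the median of all genes moved by -0.11, and 20.9% of the members were higher in place of 37.3%. Relative to all genes the members' median was -0.05 under either scaling.

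The largest differences on the Med arrays were downward. Cyp3a25, a CYP3A enzyme, was at 9.78 in control and 8.86 in Zip7 KO on the Med arrays, against 9.55 and 9.31 on the Hi arrays, a difference of -0.93 against -0.23. Ces1f, a carboxylesterase, was at 9.01 and 8.10, a difference of -0.91. On the Hi arrays it was at 10.05 in Zip7 KO, 0.05 above control. After median centring both passed 2-fold on the Med arrays, at -1.04 and -1.02. In both genes the Zip7 KO Med array held the lowest of the 4 values.

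Ces2a, of the carboxylesterase family that splits drug esters in the gut, was at 8.53 and 7.73 on the Med arrays, against 8.65 and 9.02 on the Hi arrays. Its difference was -0.79 on the Med arrays and 0.37 on the Hi arrays. Cyp2c55 was at 7.53 and 6.80 on the Med arrays, a difference of -0.73, and like Cyp3a25 it was among the 5 lowest under both labels. Gstm4, of the mu class, completed the 5 lowest, going from 8.64 to 8.22 on the Med arrays while it stood at 8.63 and 8.71 on the Hi arrays.

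Upward differences on the Med arrays were smaller. Ces1d, a lipase of liver and fat, was at 6.54 and 7.06, and at 6.06 and 6.22 on the Hi arrays, the control value there being under the floor. Ugt2b36 was at 6.04, under the floor, and 6.46, higher by at least 0.36. Ces1g was at 5.94, also under the floor, and 6.30, higher by at least 0.20. Akr1c19 and Cyp2c65, with 0.33 and 0.27, were in the upper 5 on the Med arrays as on the Hi arrays.

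By prefix the Med arrays gave 8 of 10 Ces genes lower (median -0.21), 6 of 7 Gstm (-0.21), 6 of 7 Cyp4 (-0.19), 5 of 6 Sult (-0.15) and 3 of 4 Cyp3a (-0.32). The Akr1 genes had 6 of 8 higher, with a median of 0.09, and the Ugt genes 3 of 4 higher, with 0.10. Median centring, which lowers each of these differences by more than either median, turns both medians below 0. All 4 Ces2 genes compared, which neighbour each other, were lower. Ces2a was at -0.79, Ces2e and Ces2g were both at -0.39, and Ces2b, under the floor in Zip7 KO, was lower by at least the difference of -0.21 that the floor gives. The Cyp2 genes had 7 higher and 10 lower, near the share of all genes. Of all genes compared on the Med arrays 44.1% were higher, with a median of -0.03.

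The same lists were compared on the Med arrays, where 6835 of all 12243 genes were lower and 44.1% higher, with a median of -0.03. Of 31 regulators 25 were lower (median -0.12), with Nr1h4, the bile acid receptor FXR, at -0.39, Nr1i3 at -0.34 and Nr1i2 at -0.33. Of 20 transporters 13 were lower (median -0.20), with the bile acid exporter genes Slc51b and Slc51a at -0.93 and -0.87. Of 34 other xenobiotic enzymes 20 were lower, near the share of all genes. The purine oxidase Xdh was at -0.81 and the quinone reductase Nqo1 at -0.52, while the epoxide hydrolase Ephx1 was at 0.60. Papss2, higher on the Hi arrays, was at -0.51. All 10 enterocyte markers were lower as well, with a median of -0.41 and a mean level of 11.82 in control and 11.41 in Zip7 KO. All 6 Paneth and all 8 lymphocyte markers were lower too, with medians of -1.5 and -1.14. The part of these cells in the enzyme differences on the Med arrays was not tested.

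**Figure D3:**
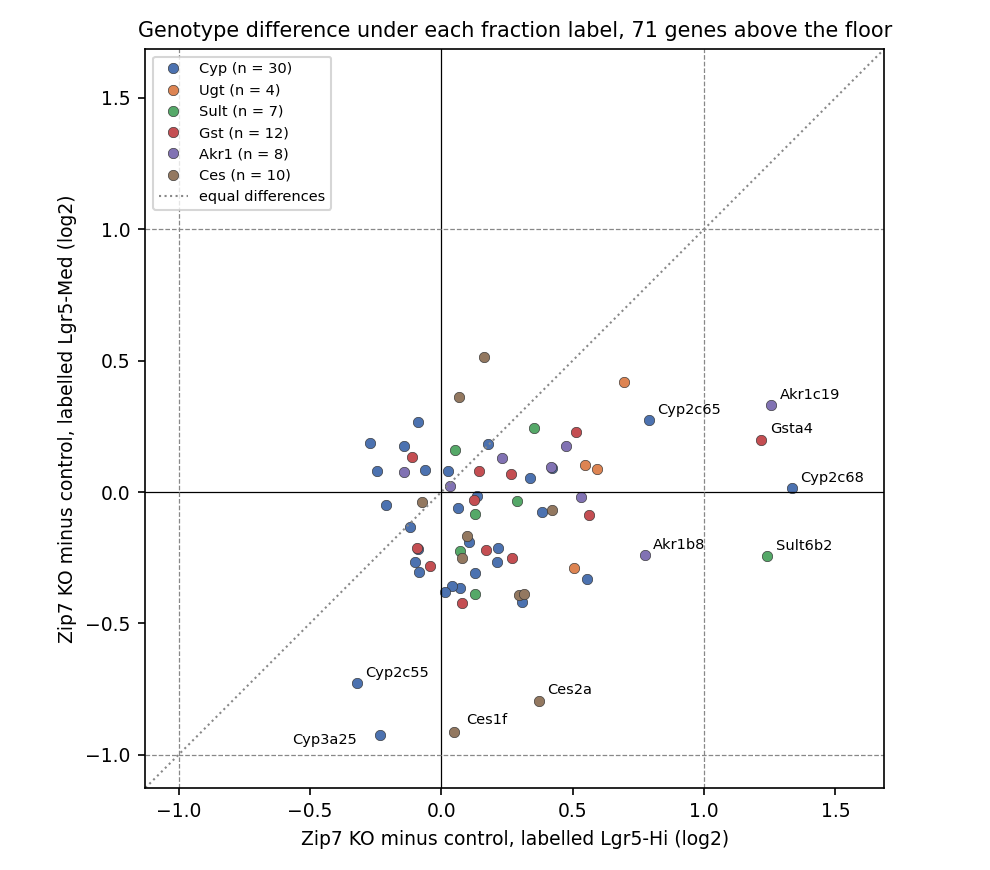
Zip7 KO minus control (log2) on the arrays labelled Lgr5-Hi (horizontal axis) and Lgr5-Med (vertical axis) for the 71 genes above the floor on at least 1 array, coloured by enzyme class. Solid lines mark 0, dashed lines 2-fold, and the dotted line equal differences. Most points lie under the dotted line, with Akr1c19, Gsta4, Cyp2c68 and Sult6b2 past 2-fold to the right and Cyp3a25 and Ces1f lowest.

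The genotype difference on the Hi arrays minus that on the Med arrays brings the 4 arrays together. It was above 0 in 57 of the 71 members, with a median of 0.30, where 59.9% of all 12404 genes were above 0 with a median of 0.05. It reached 2-fold in 5 members, where 0.322% of all genes did, and 0 members passed 2-fold in the other direction, where 0.0322% of all genes did. The 5 were Sult6b2 (1.49), Ces2a (1.17), Gsta4 (1.02), Akr1b8 (1.02) and Cyp2c68. The value of Cyp2c68 rests on 3 readings under the floor, and with the floor in their place it was 1.0, at the size counted. In 32 members (45.1%) the sign itself differed, higher on the Hi and lower on the Med arrays, as in 24.6% of all genes, and in 7 members (9.86%) the reverse held, as in 14.6% of all genes. A further 22 members were higher under both labels, a share near the 29.6% of all genes, and 10 (14.1%) were lower under both, against 31.1% of all genes.

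Every class with more than 4 members above the floor had a median above 0. Over all genes 59.9% were above 0, with a median of 0.05. The median was 0.41 for the Ces genes (7 of 10 above 0), 0.39 for the Gstm genes (7 of 7) and 0.31 for the Akr1 genes (7 of 8). It was 0.30 for the Sult genes (6 of 7), 0.25 for the Cyp2 genes (14 of 18) and 0.22 for the Cyp4 genes. Of the Cyp4 genes 5 of 8 were above 0, near the share of all genes. The 4 Ugt genes were all above 0, with a median of 0.47. Cyp3a44, above the floor on every array, was at -0.35. Ces1d and Cyp4f15 were at -0.54 and -0.25 with the floor in place of their readings under it. With 4 arrays this difference has no error and was not tested.

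The remaining comparisons set the Hi arrays against the Med arrays within each genotype. In control the enzyme genes were divided, whereas in Zip7 KO they were mostly higher on the Hi array. In control 37 of 68 members were higher and 31 lower, with a median of 0.02, against 43.3% higher and a median of -0.04 over all 12248 genes. The 1 member past 2-fold upward is 1.47% of those compared, where 0.669% of all genes were, and 0 members passed it downward, where 0.523% of all genes did. In control, 56.2% of all genes past 2-fold were higher on the Hi array, or 42.5% after median centring and 66.7% with the trend on level removed, and the members' median turned to -0.07 with median centring.

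Cyp4f40, of a family of fatty acid hydroxylases, was the control gene past 2-fold. It was at 9.21 on the Hi and 8.19 on the Med array of control, and at 9.77 and 7.86 in Zip7 KO, so the difference of 1.02 in control stood at 1.91 in Zip7 KO. After median centring the control difference was 0.93, under 2-fold. Akr1c19 and Ces1f, each at 0.99 in control, stood at 1.91 and 1.95 in Zip7 KO. Gstt1 was at 0.88 in control and 0.64 in Zip7 KO, one of the members with a smaller difference in Zip7 KO.

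In Zip7 KO 57 of 70 members were higher on the Hi array, with a median of 0.29, against 49.3% higher and a median of -0.00452 over all 12114 genes. The 12 members past 2-fold upward are 17.1% of those compared, where 1.87% of all genes were, and 0 members passed it downward, where 0.751% of all genes did. The 12 were Ces1f, Ces2a, Ces2e and Ces2g, Akr1c19 and Akr1b8, Cyp4f40, Cyp2s1 and Cyp2c68, and Gsta4, Ugt2a3 and Sult6b2. They include the 4 genes past 2-fold between genotypes on the Hi arrays, and the comparisons share the Zip7 KO Hi array, so that they are not independent.

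Among the 12, Gsta4 differed by 1.5 between the Zip7 KO arrays and by 0.48 between the control arrays. Ugt2a3, a glucuronosyltransferase, was at 9.24 and 7.83 in Zip7 KO and at 8.74 and 8.12 in control, with differences of 1.41 and 0.62. Akr1b8 was at 7.69 and 6.29 in Zip7 KO and at 6.92 and 6.53 in control, with differences of 1.40 and 0.38. In these 3 genes the order of the fractions was the same in both genotypes.

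The esterases followed the same order. Ces2a differed by 1.29 between the Zip7 KO arrays and by 0.13 between the control arrays. Ces2g, at 9.67 and 8.60 in Zip7 KO, differed by 1.06, and by 0.36 in control (9.35 and 8.99). Ces2e differed by 1.04 and 0.35. Cyp2s1, a cytochrome of epithelia outside the liver, was at 9.69 and 8.56 in Zip7 KO and at 9.65 and 8.92 in control, with differences of 1.13 and 0.74. Sult6b2 differed by 1.33 in Zip7 KO and by -0.15 in control. Cyp2c68 differed by at least 1.15 in Zip7 KO, while both control values were under the floor.

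A smaller number of members were higher on the Med arrays. Ces1d differed by -0.84 in Zip7 KO, and by -0.30 in control with the floor in place of the Hi value. Cyp4f15, with the floor in place of both Hi values, differed by -0.63 in Zip7 KO and -0.38 in control. Ugt2b35 was at 7.75 on the Hi and 8.35 on the Med array of control, a difference of -0.61, and at 8.34 and 8.44 in Zip7 KO, a difference of -0.10. Gstm5, of the mu class, was at 8.95 and 9.39 in control and at 9.22 and 9.45 in Zip7 KO. Gstt2 was at -0.42 in control and -0.18 in Zip7 KO, Akr1e1 at -0.32 and -0.22, and Cyp3a44 at -0.02 and -0.37.

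**Figure D4:**
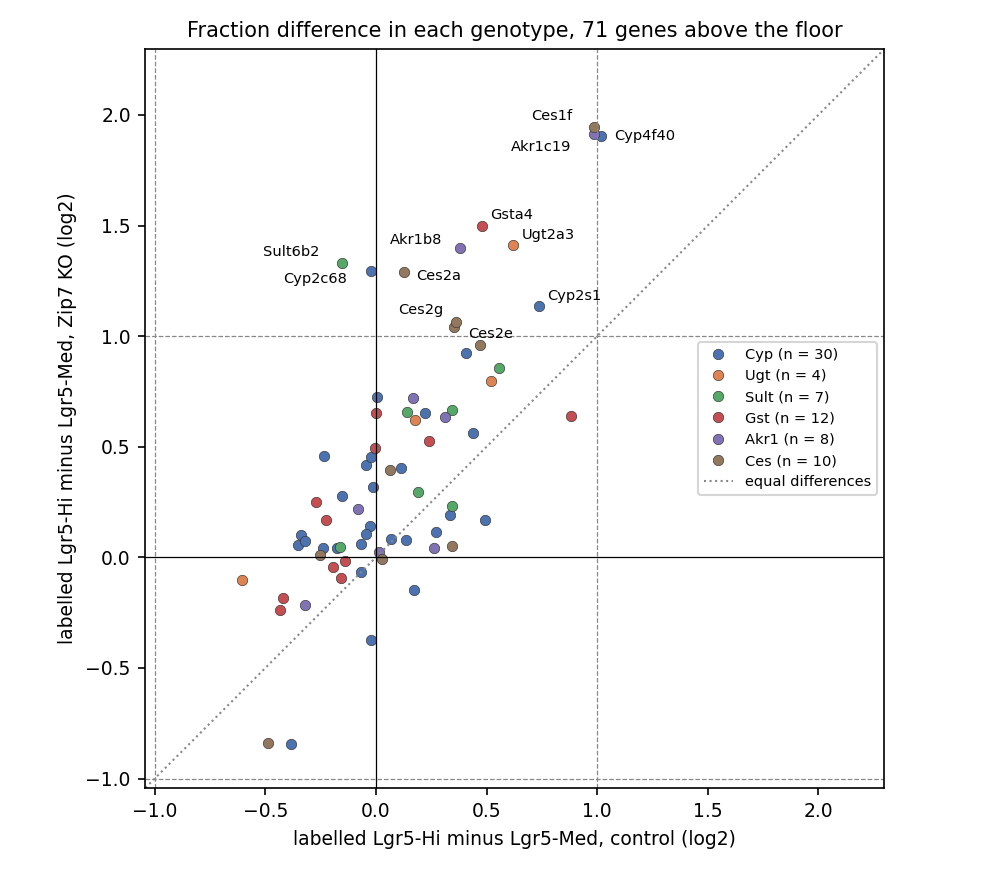
Array labelled Lgr5-Hi minus array labelled Lgr5-Med (log2) in control (horizontal axis) and Zip7 KO (vertical axis) for the 71 genes above the floor on at least 1 array, coloured by enzyme class. Solid lines mark 0, dashed lines 2-fold, and the dotted line equal differences. The points past 2-fold number 12 in Zip7 KO and 1, Cyp4f40, in control.

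Regulators were compared between the fractions in the same way. Nr1h4 was at 7.84 on the Hi and 7.21 on the Med array of control and at 8.06 and 6.81 in Zip7 KO, with differences of 0.63 and 1.25. Nr1i3 differed by 0.39 in control and 1.03 in Zip7 KO, and Hnf4g, the intestinal relative of the factor whose site is named above, by 0.43 and 0.82, while Hnf4a differed by -0.09 and -0.04. Of the 31 regulators 16 were higher in control and 24 in Zip7 KO. The cosubstrate genes were mostly higher on the Hi array in both genotypes, 13 of 15 in control and 14 of 16 in Zip7 KO. Among them Papss2 differed by 0.08 and 1.09 and Me1, which makes NADPH, by 0.94 and 1.12. Nqo1 differed by 0.70 and 1.65, and the organic anion transporter Slco3a1 by -1.21 and -1.48.

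The fractions also differed in their cells. All 6 enteroendocrine markers were higher on the Hi array in both genotypes, with medians of 2.57 in control and 2.86 in Zip7 KO, as were all 6 Paneth (0.81 and 1.24) and all 6 goblet markers compared (1.06 and 1.57). All 5 stem cell markers were lower, with medians of -1.44 and -1.70. Of the 10 enterocyte markers 4 were higher in control and 9 in Zip7 KO, with medians of -0.12 and 0.21. The tuft list had 4 of 4 higher in both, with Il25 under the floor throughout, and in the stromal list Dcn, Pecam1 and Cdh5 were under it. The part of these cells in the enzyme differences was not tested.

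**Figure D5:**
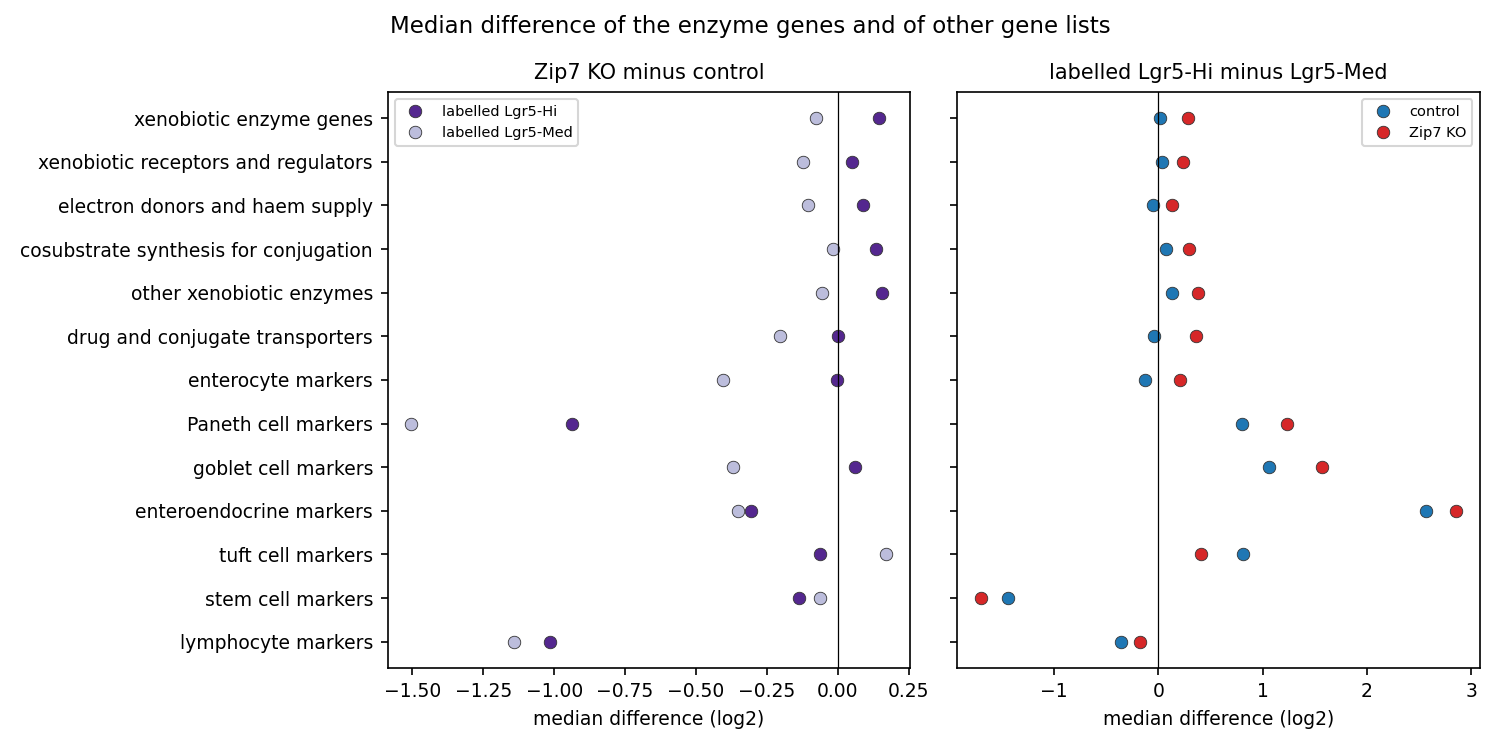
Median difference (log2, horizontal axes) of the xenobiotic enzyme genes and of 12 other lists (vertical axis), between genotypes on the left and between fraction labels on the right, with 1 point per comparison. The axes of the panels differ in range. The enzyme genes lie at 0.14 and -0.08 on the left, and at 0.02 in control and 0.29 in Zip7 KO on the right.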

How the data were processed

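RNA of sorted crypt cells was hybridised as biotinylated cDNA to 4 Affymetrix arrays, 1 per group. The deposited values are log2 levels per probe set that the authors obtained with RMA, per the submitters' processing notes; software version and genome build were not given in the sources used here. RMA puts arrays on a common distribution of probe intensities, so a change shared by most genes would be reduced. All 4 value columns were mapped to samples by their names, and 0 were unmapped. Of 35557 probe sets 21789 carry 1 gene symbol in GEO's platform annotation, 1621 carry several and 12147 are unnamed here; all 144 member symbols matched RefSeq's gene table. Where a gene had several probe sets, the one highest on average gave its level.

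Genes were compared where either of the 2 arrays showed them above the floor. Differences are between log2 levels, and a bound marked "at least" has the floor in place of the lower value. The size counted is 2-fold. No test was possible with 1 array per group, and precision is limited by the number of arrays. Genes named are those past 2-fold in any comparison, the gene with the highest mean level in each prefix, and the 5 with the largest differences in each direction of each comparison; other genes are named as neighbours, family members or list examples, some of them after their values were seen. The members and lists were chosen with earlier results of these data known. One cytochrome that the rule leaves out is not reported here. Known shifts put into genes of a copied array were recovered by the count past 2-fold, and medians were not checked in this way. The copy differed in nothing else, so this checks the counting and not how far 2 separate arrays differ without cause. Python 3.11.15, NumPy 2.4.6, pandas 2.3.3, statsmodels 0.14.6 and matplotlib 3.10.9 were used. Alternatives were other scalings (quantile, median centring, removal of a loess trend), the mean of probe sets, floors at percentiles 90 and 99, low values raised to the floor, a size of 1.5-fold, leaving out the other cytochrome families and, added after the data were seen, a filter on the mean of all arrays.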

Additional observations from a re-analysis of the deposited data

Results flagged for a closer look

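The difference between Zip7 KO and control had opposite signs under the fraction labels, at least 2-fold apart, in 3 enzyme genes. In Akr1b8 it was 0.78 on the arrays labelled Lgr5-Hi and -0.24 on those labelled Lgr5-Med. In Ces2a it was 0.37 and -0.79, and in Sult6b2 1.24 and -0.24. Signs aside, the genotype differences lay that far apart in this direction in 5 of 71 members (7.04%) and in 0.322% of all genes. Sult6b2 also had opposite signs between the fractions, at 1.33 in Zip7 KO and -0.15 in control. The median over the enzyme genes compared was 0.14 under Lgr5-Hi and -0.076 under Lgr5-Med. Over all genes compared it was 0.02 and -0.03, with opposite signs as well. With 1 array per group none of these differences between groups was tested.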

How the results depend on the processing

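No paired analysis was possible because each group has 1 array and no result comes from a test, and for the same reason no replicate could be left out. The enzyme genes' median kept its sign under every alternative for Zip7 KO against control on the Hi arrays (0.08 to 0.21) and the Med arrays (-0.19 to -0.06), for the fractions in Zip7 KO (0.23 to 0.41) and for the difference between the genotype differences (0.28 to 0.40). The fractions in control did not keep it (-0.07 to 0.07). Median centring gave -0.070 there with 0 genes 2-fold higher, and on the Med arrays a median of -0.19 with 2 genes 2-fold lower. Quantile normalisation and loess each gave 3 genes 2-fold higher between the control fractions. A floor at percentile 99 moved the median in Zip7 KO to 0.41. At 1.5-fold, 8 of 69 members were higher in Zip7 KO on the Hi arrays, where 1.08% of all genes were. On the Med arrays 4 of 67 members were lower, where 2.1% of all genes were. Between the control fractions 6 of 68 members were higher and 1 lower, where 2.3% and 3.14% of all genes were. Between the Zip7 KO fractions 25 of 70 members were higher and 2 lower, where 5.9% and 3.56% of all genes were. Of the values of named genes under alternatives, 1063 kept size and side of 2-fold, 43 moved, 6 passed 2-fold and 2 fell under it, Ces2e between the Zip7 KO fractions (0.99, quantile) and Cyp4f40 between the control fractions (0.93, median centring). The cause was not tested. Genes under the floor have no order.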

Other observations

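Alpha class glutathione transferases are also read by 4 probe sets that carry several gene symbols and so name no single gene. All 4 were above the floor on every array. They were higher in Zip7 KO than in control by 0.83 to 0.96 on the arrays labelled Lgr5-Hi and lay at -0.19 to -0.03 on those labelled Lgr5-Med. Between the fractions they differed by 1.02 to 1.27 in Zip7 KO and by 0.11 to 0.16 in control. The probe sets share genes and are not independent of each other.

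A probe set of 8 Ugt symbols was at 9.21 and 9.47 in control and Zip7 KO under the label Lgr5-Hi and at 8.65 and 8.58 under Lgr5-Med. One of 3 probe sets with several Cyp3a symbols was at 7.03 and 7.28 under the first label and at 7.51 and 6.78 under the second, with differences of 0.24 and -0.73. The other 2 Cyp3a probe sets differed from control by 0.063 and 0.035 on the arrays labelled Lgr5-Hi.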
